A study of Mus musculus with 12 samples.

Results

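The genes described here are the mouse collagens, laminins and integrins, which encode the main fibres and sheets of the extracellular matrix and the receptors that hold cells to them. They were chosen by symbol alone, among the genes in both deposited tables of junction reads. The forms taken were a collagen chain (Col, a type number, a and a chain number) and a laminin chain (Lama, Lamb or Lamc and a number). An integrin alpha subunit was taken if a number or v follows Itga, and a beta subunit if a number follows Itgb. Integrin alpha subunits with other letters in their symbol, such as Itgam, do not match this form and were not analysed here. The rule found 72 genes, of the 18385 genes with an annotated exon junction in the first table and the 17462 in the second. They comprise 44 collagens, 10 laminins and 18 integrins. Itga1, Itga10 and Lamb3, which also belong to these families, did not match the rule in both tables and were not analysed here.

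Collagen chains wind round each other into rope-like helices built on a repeat with glycine at its start, and the chain types then assemble into fibrils, flat networks, beaded filaments or membrane-bound proteins. Laminins are cross-shaped proteins made of an alpha, a beta and a gamma chain, and with type IV collagen they form the basement membrane, which in brain wraps the blood vessels and lies under the meninges. Integrins are receptors made of an alpha and a beta subunit, and the pairing sets whether a cell binds laminin, collagen or proteins with an RGD sequence such as fibronectin.

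Polyadenylated RNA of wild-type NMRI mice was sequenced in 12 stranded libraries, 2 in each of 6 groups. The tissue groups are neocortex of young mice at postnatal day 10 (P10) and of adult mice at postnatal day 49 (P49). The culture groups are primary cells of E16.5 neocortex grown for 14 days. Cultures were left untreated (control) or given DRB, an inhibitor of transcript elongation by RNA polymerase II, at 50 uM for 2 hours. In a second experiment all cultures had this DRB treatment, alone or with bicuculline at 20 uM for 1 hour. Bicuculline is a blocker of GABA-A receptors that raises network activity. No transgene or mutation is named in any group, and by their labels the groups differ in tissue or culture, age and drug. Some columns name the first DRB libraries with TTX, which blocks action potentials, and whether that agent was also given cannot be told from the sources used here. Labels do not say whether paired libraries of a group stem from different animals or dishes, and one tissue code is shared by both P10 columns. The p-values therefore cover only the spread between these samples, and that spread may be technical.

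The values are reads across annotated exon junctions, summed per gene and given as counts per 1000000 spliced reads (CPM) after TMM scaling, so each level is relative to all spliced RNA of its library. Depth was 49559425 to 73900724 spliced reads per library in the first table, which holds both tissue groups, the controls and their DRB partners. In the second table, scaled separately, it was 62423801 to 69852903. In tissue and cultures alike, fewer cells of a type and less RNA per cell cannot be told apart. Endothelial, mural and meningeal cells make much of the brain's collagen and laminin, and their markers differed between the groups. Summed CPM of 7 endothelial markers was 285.5 to 292 at P10, 191.7 to 209.9 at P49 and 94.4 to 111.8 in control cultures, where nearly all of it was Kdr (109 and 91.6 CPM) while the defining marker Cdh5 was at 0.0745 and 0.0504 CPM. The control cultures also had 3 of 8 mural markers at 0, Kcnj8, Des and Higd1b, and the mural sum there, 533 to 652 CPM against 158.5 to 161.6 at P10, was almost wholly Acta2 (607.5 and 486.5 CPM). Neuronal markers were present throughout, and their 7 genes summed to 4714 to 4769 CPM at P10, 7409 to 7429 at P49 and 2036 to 2135 in control cultures.

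Values per junction set genes of different length side by side only roughly, as reads were spread unevenly along some genes. On this scale the most abundant member at P10 was Itgb1, the beta subunit shared by most integrins, at 10.8 CPM per junction. Col4a1 followed at 9.63 and Col4a2 at 8.18. At P49 the order was Col6a1, a beaded-filament collagen, at 8 CPM per junction, then Itgb1 at 5.93 and Col4a2 at 4.26. In control cultures Itgb1 stood at 22.9 CPM per junction, followed by Itgb5 at 16.1 and Lamb2 at 14.2. Of the type IV chains that line vessels, Col4a2 was thus among the first 3 at both ages and Col4a1 at P10, where at P49 it stood at 2.85 CPM per junction. Neither was among the first 3 in culture.

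**Figure D1:**
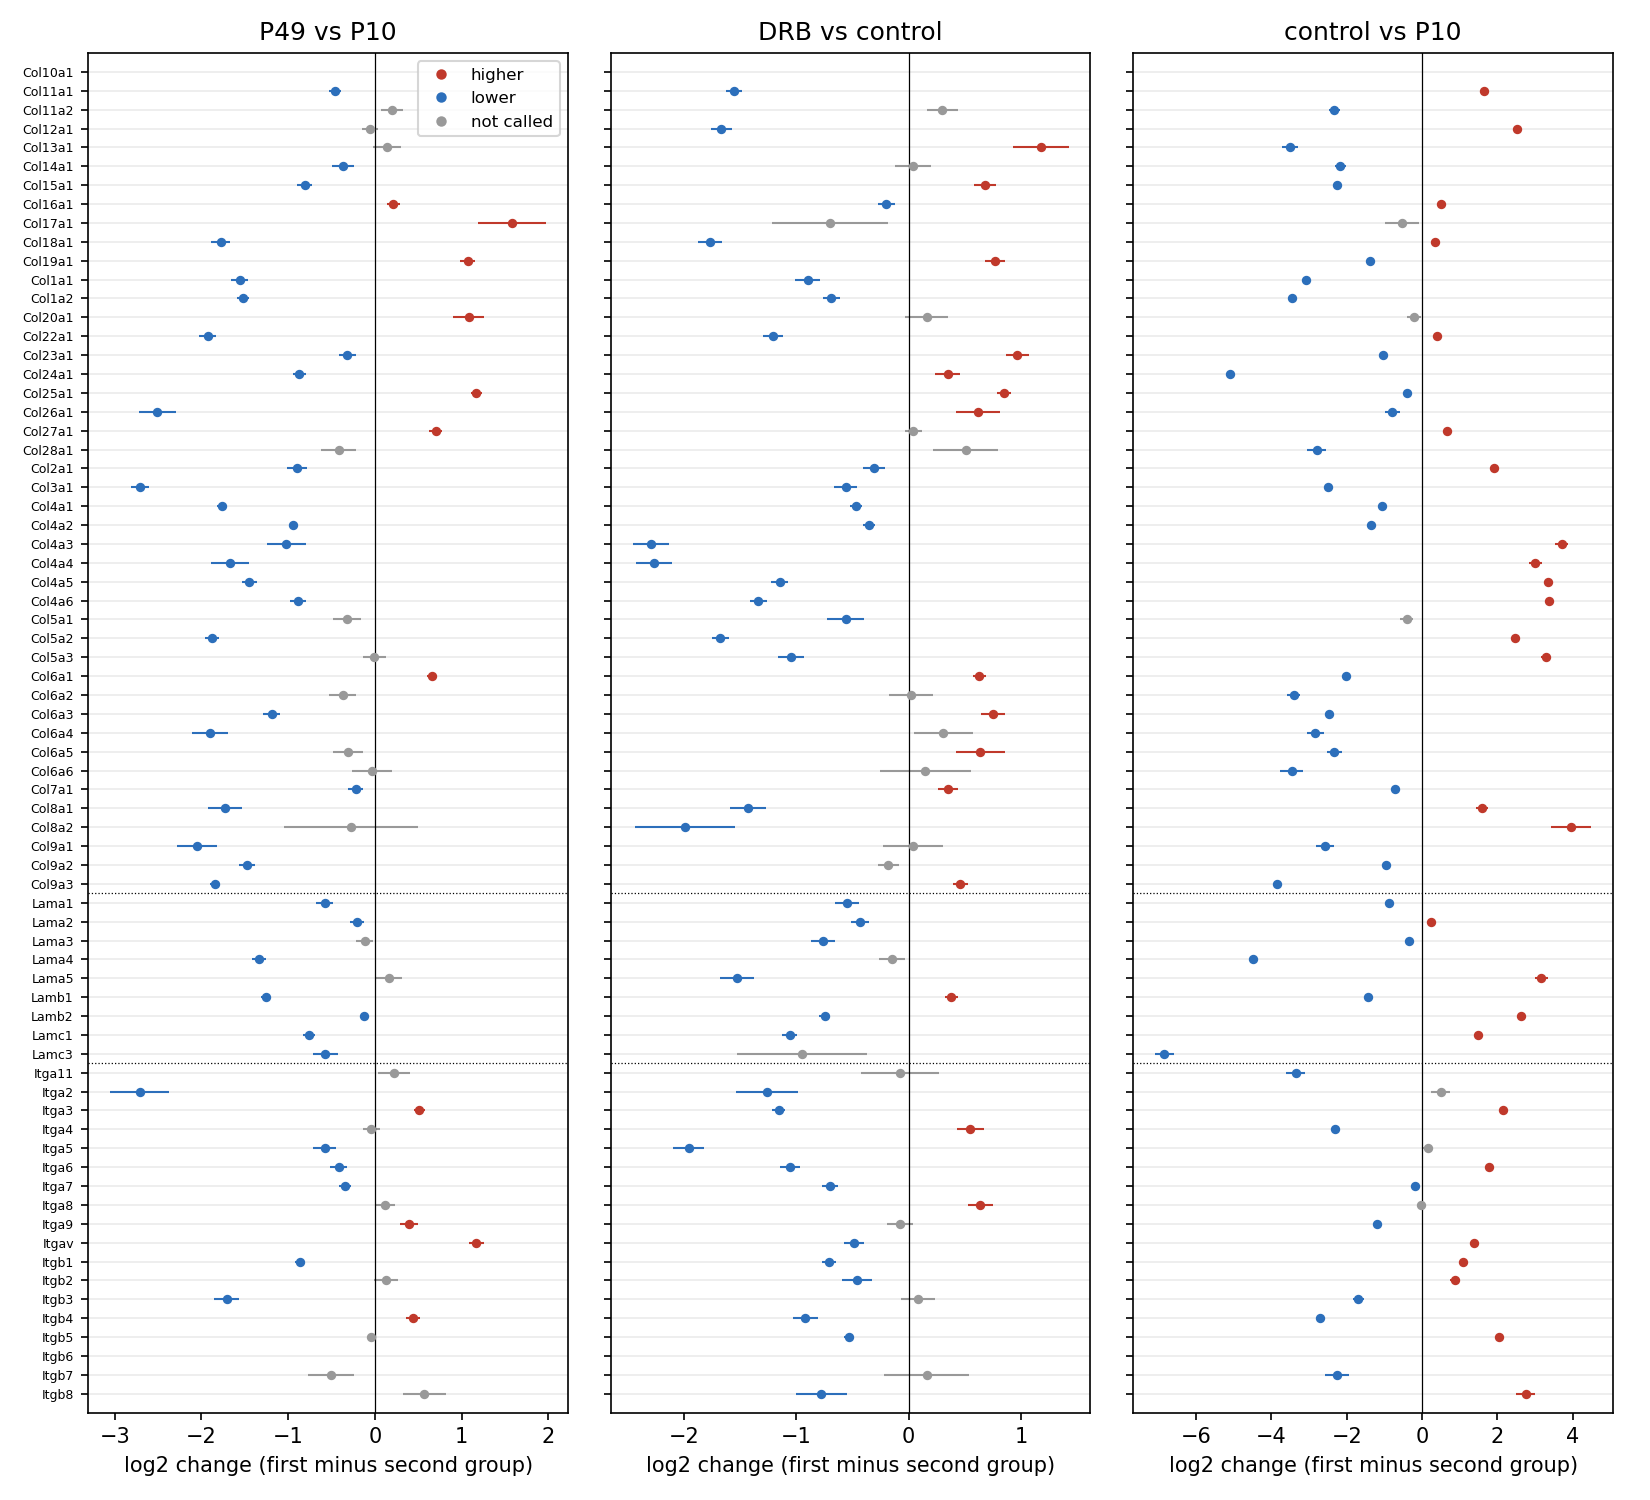
Log2 change of 69 of the 70 tested genes (points) with its standard error (bars) for P49 against P10, DRB against control and control against P10, from edgeR, with genes in rows and dotted lines between collagens, laminins and integrins. Points right of 0 are higher in the first-named group, and colours mark genes called at an adjusted p of 0.05. The P49 panel holds 39 lower and 11 higher genes, and the control against P10 panel has the widest scale.

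Young and adult neocortex were compared to see how the matrix genes change with age. Most of the collagens and laminins that changed were lower in the adult: fibrillar collagens, the type IV collagens of basement membranes and the laminin chains Lama4, Lamb1 and Lamc1 fell, while a few collagens, among them the membrane collagen Col25a1, and the integrin subunit Itgav rose. In the quasi-likelihood fit of edgeR, with p-values adjusted over all genes by Benjamini-Hochberg, 39 of the 70 members tested fell and 11 rose at P49. Among all 15277 genes tested, 29% fell and 28.1% rose, and 57.1% changed in either direction. The share of members that changed was thus above that of all genes, with more of them lower, and the median log2 change was -0.39 for the members and 0.00 for all genes. Of 43 collagens 26 fell and 7 rose, of 10 laminins 7 fell and none rose, and of 17 integrins 6 fell and 4 rose.

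Col3a1, a fibrillar collagen of soft tissue and vessel walls, was at 149 and 163 CPM in the P10 libraries and at 23.2 and 24.7 in the P49 libraries. Both adult values lay far below both young ones, a log2 change of -2.71 ± 0.1 (SE, edgeR adjusted p = 3.75e-09). The chains of type I collagen, the most common fibril former of connective tissue, fell in step: Col1a1 went from 156 ± 25.8 to 52.9 ± 1.27 CPM (mean ± SD, n = 2), with 175 and 138 in the P10 libraries and 52 and 53.8 in the P49 libraries. Col1a2 went from 224 and 239 CPM to 77.8 and 84. Their log2 changes were -1.56 ± 0.095 and -1.52 ± 0.065 (SE). Col5a2, a chain that sets fibril width, fell from 59.1 and 65.3 CPM to 16 and 17.9. In all, 7 of the 11 fibrillar collagens fell and 1 rose, Col27a1.

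Among the sheet-forming network collagens 7 of 8 fell and none rose, with a median log2 change of -1.23. Col4a1 was at 472 and 509.5 CPM at P10 and at 144 and 147 at P49, and Col4a2 at 364 and 405 against 196.5 and 204. The groups did not overlap for either gene, although Col4a1 changed by -1.76 ± 0.058 and Col4a2 by -0.94 ± 0.053 on the log2 scale (SE), and per junction Col4a1 stood above Col4a2 at P10 (9.63 against 8.18 CPM per junction) and below it at P49 (2.85 against 4.26). The other 4 type IV genes fell as well, Col4a4 by 1.67 on the log2 scale, Col4a5 by 1.45, Col4a3 by 1.02 and Col4a6 by 0.89.

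Other collagens with large changes were of several kinds. The cartilage-type collagen IX chains fell together, Col9a3 from 227 and 207.5 CPM to 59.3 and 62.3, and Col9a1 from 10.7 and 9.8 to 1.74 and 3.24. Col22a1, known from tissue junctions, fell from 28.9 and 33.6 CPM to 8.25 and 8.11. Col26a1 fell from 43.7 and 39.3 CPM to 9.05 and 5.44, and Col6a4 from 6.04 and 4.89 to 1.52 and 1.39. On the rising side stood Col25a1, a membrane collagen of neurons that is found in amyloid plaques, at 43.8 and 40.1 CPM at P10 and 92.8 and 96.3 at P49. This was a log2 change of 1.17 ± 0.06 (SE, edgeR adjusted p = 8.98e-10). Col19a1, Col20a1 and Col6a1, named here after their values were seen, also rose, by 1.07, 1.08 and 0.66 on the log2 scale. The collagen with the largest rise was Col17a1, a membrane collagen of epithelia, likewise named after its values were seen and at a low level, 1.49 and 1.06 CPM at P10 and 2.77 and 4.89 at P49. Its log2 change of 1.58 ± 0.394 (SE, edgeR adjusted p = 0.00832) was 1.35 and no longer called without the second P10 library (0.0632).

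Of the laminins, Lama4, an alpha chain of vessel walls, had the largest fall, from 71.3 and 80.9 CPM to 30.1 and 30.2. Its log2 change was -1.34 ± 0.08 (SE, edgeR adjusted p = 4.14e-09). Lamb1 fell from 95.6 and 95.4 CPM to 40.3 and 39.7, and Lamc1, the gamma chain of most laminins, from 86 and 89.1 to 51.6 and 51.7. Lama1 and Lamc3, which occur in the basement membrane at the brain surface, fell by 0.58 and 0.57 on the log2 scale. Lama2 was at 40.1 and 45.1 CPM at P10 and 37.9 and 35.8 at P49, and its call (log2 change -0.21, edgeR adjusted p = 0.0379) was lost without the second P10 library (adjusted p = 0.265), without the second P49 library (0.18) and with DESeq2 (0.0613). Lama5 did not pass (0.16, adjusted p = 0.437), and it did pass without the first P10 library (0.40, adjusted p = 0.000257 with edgeR).

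Integrins moved in both directions. Itgav, an alpha subunit that binds RGD proteins and pairs with several beta subunits, rose from 51.1 and 43 CPM at P10 to 111.5 and 100 at P49, a log2 change of 1.17 ± 0.091 (SE, edgeR adjusted p = 2.65e-06). Of its partners, Itgb3 fell from 11.4 and 15.4 CPM to 4.16 and 4.05, and Itgb5 stood at 55.2 and 54.2 against 53.2 and 52.5 without a call. A further partner, Itgb8, which with Itgav releases active TGF-beta, was at 21.5 and 12.9 CPM at P10 and 26.2 and 24.8 at P49. Its change of 0.57 did not pass (edgeR adjusted p = 0.111), and its P10 libraries lay far apart: the change was 0.98 without the first of them (3.53e-09) and 0.25 without the second (0.0104), and passed with DESeq2 (0.0491).

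Itgb1 fell from 159 and 165 CPM to 88.8 and 89, a log2 change of -0.86 ± 0.059 (SE, edgeR adjusted p = 2.18e-08). The laminin receptor subunit Itga6 fell by 0.42 and the fibronectin receptor subunit Itga5 by 0.58 on the log2 scale, whereas Itga3, also a laminin receptor subunit, rose by 0.51 and Itgb4, the partner of Itga6 in epithelia, by 0.44.

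The rest of the matrix was described by lists. Of 20 other matrix and basement membrane proteins 17 fell and none rose, with a median log2 change of -0.90. The basement membrane linkers Nid2 and Nid1 fell by 2.83 and 2.48 on the log2 scale, and Hspg2 (perlecan) by 1.54. Of 22 collagen processing enzymes and chaperones 12 fell and 2 rose, among them the collagen chaperone Serpinh1, from 26.4 and 26.3 CPM to 6.13 and 6.85, and the crosslinking enzyme Lox, from 3.04 and 3.46 to 0.313 and 0.235. Integrin adaptors fell in 9 and rose in 4 of 18 cases, other collagen and laminin receptors in 3 and 5 of 9, and matrix-degrading enzymes and their inhibitors in 7 and 2 of 12. Beside these stood the cell markers: 5 of 7 endothelial markers fell with a median of -0.68, 6 of 8 mural markers with -0.59, 4 of 7 fibroblast and meningeal markers with -0.45, and all 6 oligodendrocyte markers rose with 1.75. All 4 haemoglobin genes fell with -0.93, and 6 of 7 neuronal markers rose with 0.34. Their part in the changes of collagens and laminins was not tested.

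Cultures without drug were set against P10 neocortex, both being sources the study examined. Culture, age and cell make-up differ together between them and cannot be told apart, and the P10 libraries are the same ones that serve the comparison with P49. Of the type IV collagens, the vessel chains Col4a1 and Col4a2 were lower in culture than at P10, and Col4a3, Col4a4, Col4a5 and Col4a6 were higher. Per junction, Col4a5 stood at 7.04 CPM in control cultures, ahead of Col4a1 at 4.59 and Col4a2 at 3.21. Col4a6 was at 1.91, Col4a3 at 0.392 and Col4a4 at 0.331, so these stayed below the vessel chains. The laminin genes shifted from Lama4 and Lamb1 to Lama5 and Lamb2. In the cultures 26 of 70 members were called higher and 37 lower by edgeR. For all genes the shares were 37.1% higher and 37% lower, 74.1% in all, so the count of higher members was at the background and the count of lower ones above it. The median log2 change was -0.61 for the members and 0.01 for all genes.

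Col4a1 was at 472 and 509.5 CPM at P10 and 247 and 221 in control cultures, and Col4a2 at 364 and 405 against 153 and 149. Both were lower in culture, by 1.07 ± 0.057 and 1.35 ± 0.053 on the log2 scale (SE). Col4a5 stood at 38 and 35.4 CPM at P10 and 398 and 348 in control cultures, a log2 change of 3.35 ± 0.083 (SE, edgeR adjusted p = 1.7e-11), and Col4a6 at 7.79 and 8.51 against 89.4 and 78.9, a change of 3.37 ± 0.082. Col4a3 was at 1.51 and 1.53 CPM against 22.8 and 17.2, and Col4a4 at 2.1 and 1.76 against 16.1 and 15. Within each of the 3 pairs both genes moved the same way.

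The 6 type IV genes lie in 3 head-to-head pairs that are read in opposite directions. By the closest annotated starts of coding transcripts, the starts of Col4a3 and Col4a4 on chromosome 1 lie 127 bases apart and those of Col4a5 and Col4a6 on chromosome X 1309 bases. Col4a1 and Col4a2 on chromosome 8 leave no gap: their starts lie 21 bases apart and the transcripts, on opposite strands, overlap in their first 22 bases. The stretches are shown because both genes of each pair changed in 1 direction in every comparison of the first table, though not always by the same amount. At P49 and under DRB all 6 genes fell, so the pairs differed in direction only between control cultures and P10. No stretch of the pair Col4a3 and Col4a4 is shown, as the sources used here held no promoter sequence for Col4a3. They come from RefSeq, build GRCm38.p6 (mm10), and run 5′ to 3′ on the strand named. The first is the overlap of Col4a1 and Col4a2, which is part of both transcripts, chr8:11312805-11312826, plus strand, and the others are bases before the start of Col4a5, chrX:141475169-141475384, plus strand, and of Col4a6, chrX:141474077-141474326, minus strand. Capitals mark matches to the CCAAT box, the GC box GGGCGG or the TATA box TATAAA on either strand.
Col4a1/Col4a2 overlap: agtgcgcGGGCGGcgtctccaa
Col4a5: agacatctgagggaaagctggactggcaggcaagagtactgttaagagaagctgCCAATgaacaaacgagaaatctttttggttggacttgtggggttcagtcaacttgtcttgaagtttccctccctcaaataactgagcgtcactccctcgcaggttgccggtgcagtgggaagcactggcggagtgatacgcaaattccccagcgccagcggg
Col4a6: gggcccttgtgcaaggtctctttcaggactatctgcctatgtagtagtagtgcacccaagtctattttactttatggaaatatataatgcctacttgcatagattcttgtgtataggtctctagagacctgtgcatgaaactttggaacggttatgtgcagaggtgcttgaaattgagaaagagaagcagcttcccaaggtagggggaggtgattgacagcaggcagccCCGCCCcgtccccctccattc
The 22 overlapping bases of Col4a2 and Col4a1 hold 1 GGGCGG, the Col4a5 stretch 1 CCAAT and the Col4a6 stretch 1 GGGCGG, read there as its reverse complement. None of these 3 stretches holds TATAAA. Among 32851 mouse promoter windows of 250 bases, 33.8% hold CCAAT, 32.7% GGGCGG and 12.4% TATAAA on either strand, so these letters are common. The overlap is shorter than such a window and is no stretch before a start, so these shares do not apply to it. The Col4a5 stretch, of 216 bases, is also shorter than a window, so the shares are only a rough guide to it. RefSeq promoter windows were matched for 52 of the 72 members, giving 57 windows, of which 16 hold CCAAT, 30 GGGCGG and 5 TATAAA.

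**Figure D2:**
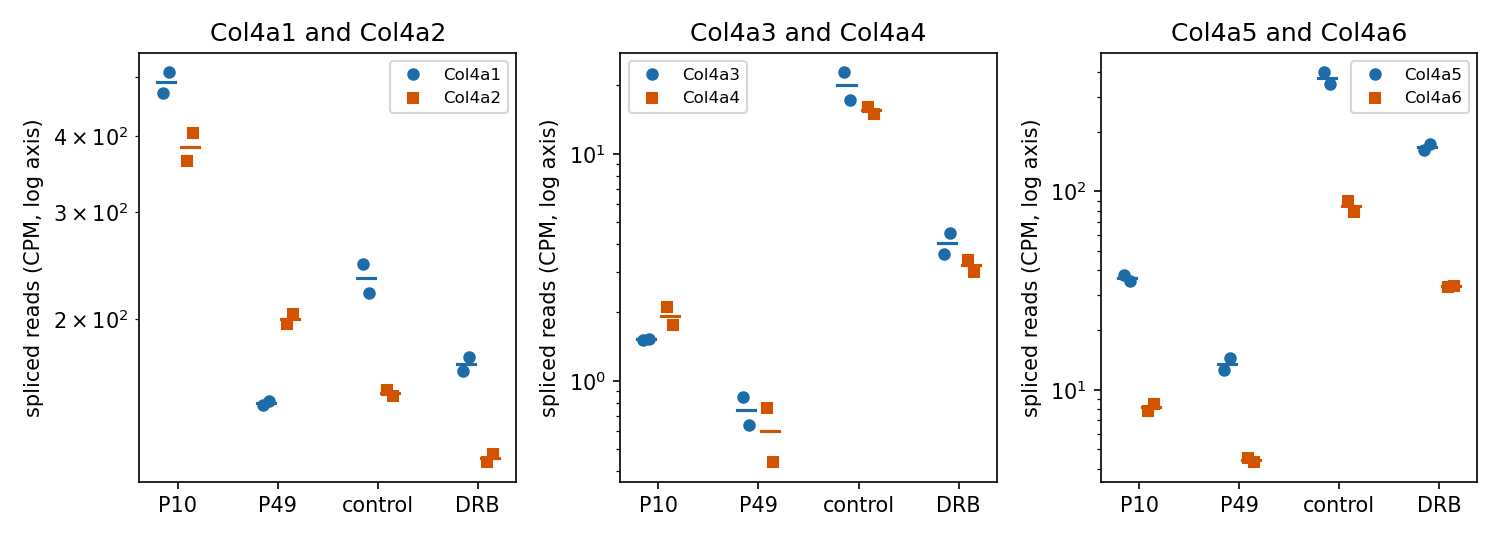
Spliced reads (CPM, log axis) of the 3 pairs of type IV collagen genes in each library of the first table, with points for libraries and short lines for the mean of 2. Col4a1 and Col4a2 are highest at P10, while Col4a3, Col4a4, Col4a5 and Col4a6 are highest in control cultures, lower under DRB and lowest at P49.

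Fibrillar collagens divided in culture, with 5 of 11 higher and 5 lower. The connective-tissue chains were lower: Col1a1 fell from 175 and 138 CPM at P10 to 18 and 19.1 in control cultures, Col1a2 from 224 and 239 to 22.6 and 19.5, and Col3a1 from 149 and 163 to 31 and 24.3. The log2 change of Col1a2 was -3.46 ± 0.072 (SE, edgeR adjusted p = 3.58e-14). The minor fibrillar chains Col5a2 and Col5a3, the latter named after its values were seen, were higher, Col5a2 at 373 and 321.5 CPM against 59.1 and 65.3, and Col5a3 at 111 and 99.3 against 9.58 and 12. The largest fall among collagens was that of Col24a1, a fibrillar chain, which went from 88.7 and 92 CPM at P10 to 2.53 and 2.71 in culture, a log2 change of -5.10 ± 0.095 (SE).

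All 8 beaded-filament and anchoring collagens were lower in culture, with a median log2 change of -2.63. Col6a6 went from 4.9 and 4.51 CPM to 0.54 and 0.319. Col9a3 fell from 227 and 207.5 CPM to 14.3 and 15.5, and the membrane collagen Col13a1 from 7.52 and 6.15 to 0.429 and 0.756. Col25a1 differed little, 43.8 and 40.1 CPM against 30.7 and 32.6, and was lower by 0.41 on the log2 scale (edgeR adjusted p = 2.89e-05).

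Among laminins, Lama4 went from 71.3 and 80.9 CPM at P10 to 3.43 and 3.35 in control cultures, a log2 change of -4.49 ± 0.098 (SE, edgeR adjusted p = 3.05e-14). Lama5, the broadly used alpha chain of mature basement membranes, went the other way, from 44.4 and 32.4 CPM to 365 and 325, a change of 3.17 ± 0.16. Lamb1 fell from 95.6 and 95.4 CPM to 36.2 and 34.9 while Lamb2 rose from 73.5 and 73.8 to 460 and 447. Lamc1 rose from 86 and 89.1 CPM to 261 and 228, and Lamc3 was nearly absent from culture, at 0.242 and 0.101 CPM against 18.3 and 20.8. Lama2 was close in both, 40.1 and 45.1 against 52.7 and 47.8 CPM, and its call (log2 change 0.24, edgeR adjusted p = 0.0151) was lost without the first P10 library (0.12) or the first control library (0.145).

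Several integrin subunits stood higher in culture. Itgb8 was at 21.5 and 12.9 CPM at P10 and at 119.7 and 111 in control cultures, a log2 change of 2.75 ± 0.25 (SE, edgeR adjusted p = 0.000332). Itgav rose from 51.1 and 43 to 129 and 117 CPM, Itgb5 from 55.2 and 54.2 to 228 and 225, and Itgb1 from 159 and 165 to 367 and 321. The laminin receptor subunits Itga3 and Itga6 rose to 148 and 129.7 CPM and to 119.8 and 104 CPM, by 2.16 and 1.79 on the log2 scale. Itgb4 fell from 20.3 and 20.9 CPM to 3 and 3.26, and Itga4, a receptor subunit of blood cells, from 13.1 and 13.2 to 2.72 and 2.57. Thus Itga6 and Itgb4, subunits of a known pair, moved in opposite directions.

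**Figure D3:**
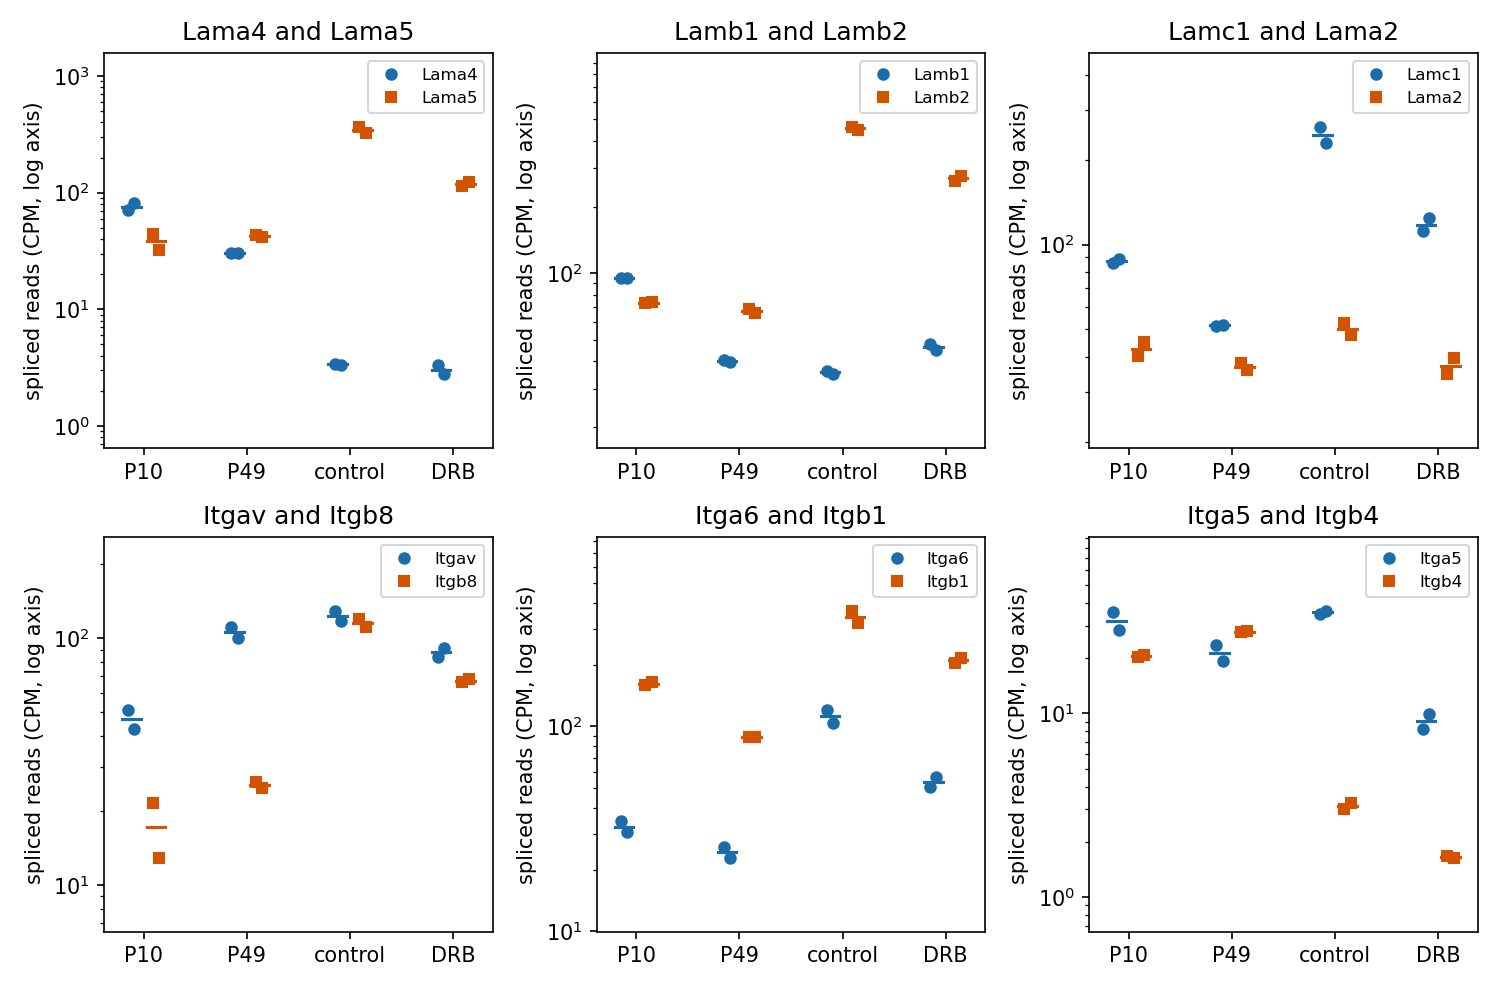
Spliced reads (CPM, log axes) of laminin chains and integrin subunits in each library of the first table, with points for libraries and short lines for the mean of 2. Lama4 and Lamb1 are lower in control cultures than at P10 where Lama5 and Lamb2 are higher, and Itgav is higher than at P10 both at P49 and in control cultures.

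Other matrix genes were also split between culture and tissue. Of 22 processing enzymes 12 were higher and 8 lower, among the higher ones Serpinh1 at 90.6 and 84.2 CPM against 26.4 and 26.3. Of 20 other matrix proteins 10 were higher and 9 lower, with Sparc, a collagen-binding protein, at 2917 and 2662 CPM against 482 and 487, and vitronectin (Vtn) at 1.49 and 1.23 against 90.4 and 91.8. Integrin adaptors were higher in 9 and lower in 8 of 18 cases, matrix-degrading enzymes and inhibitors in 6 and 5 of 12. The non-integrin receptors were higher in 8 of 9 cases and lower in 1, with the collagen receptor Ddr1 at 401 and 382 CPM against 73.7 and 66.2. Among the markers, 6 of 7 endothelial genes were lower in culture with a median of -6.53, 7 of 8 mural genes with -9.20, 6 of 7 fibroblast and meningeal genes with -3.19 and 6 of 9 microglial genes with -1.11, and 5 of 6 astrocyte genes were higher with 0.74. All 6 oligodendrocyte markers were lower with a median of -3.87, all 4 haemoglobin genes, a sign of blood, with -9.74, and 5 of 7 neuronal markers with -1.36, where the other 2 were higher. Their part in the differences of the members was not tested.

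Cultures with and without DRB show which transcripts stay when new synthesis is blocked, and because values are relative, a gene that stays while others go is read as higher. The control libraries are shared with the comparison to P10. After 2 hours of DRB the type IV and most minor fibrillar collagens, Lama5, Lamc1 and most integrin subunits were lower relative to other spliced RNA, and the beaded-filament collagens and membrane collagens with a call were higher. Of 70 members 37 fell and 15 rose by edgeR, against 33.5% and 30% of all genes and 63.5% in either direction. The share of members that fell was above the background and the share that rose below it. The median log2 change was -0.45 for members and -0.03 for all genes, and by family it was -0.65 for laminins, -0.53 for integrins and -0.18 for collagens.

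The collagen with the largest fall was Col4a3, at 22.8 and 17.2 CPM in control and 3.61 and 4.49 under DRB, a log2 change of -2.30 ± 0.16 (SE, edgeR adjusted p = 2.33e-08). Its neighbour Col4a4 went from 16.1 and 15 CPM to 3.42 and 3.02, a change of -2.27 ± 0.16. Col4a5 and Col4a6 fell by 1.15 and 1.34 on the log2 scale, while Col4a1 fell by 0.47, from 247 and 221 CPM to 164 and 173, and Col4a2 by 0.35, from 153 and 149 to 116 and 120. All 8 network collagens tested fell, with a median of -1.39.

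Col18a1, a basement membrane collagen whose end fragment is endostatin, fell from 77 and 64.8 CPM to 21.4 and 20.3. Col5a2 fell from 373 and 321.5 CPM to 109 and 108, Col12a1, which decorates fibrils, from 176 and 152.5 to 49.4 and 53.5, and Col11a1 from 386 and 334 to 115 and 129. Their log2 changes lay between -1.77 and -1.56. The connective-tissue chains moved less: Col1a1 fell by 0.90, Col1a2 by 0.69 and Col3a1 by 0.56 on the log2 scale.

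In the rising group, 4 of 8 beaded-filament and anchoring collagens were called higher and none lower, with a median log2 change of 0.43, and 3 of 4 membrane collagens were higher and none lower. Col25a1 was at 30.7 and 32.6 CPM in control and 56.4 and 58 under DRB, a change of 0.85 ± 0.062 (SE, edgeR adjusted p = 2.53e-08). Col23a1, a membrane collagen named after its values were seen, rose from 19.6 and 19.7 CPM to 38.6 and 38.2.

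Of 10 laminins 6 fell and 1 rose. Lama5 fell from 365 and 325 CPM to 115 and 124, a log2 change of -1.53 ± 0.15 (SE, edgeR adjusted p = 0.000321), Lamc1 from 261 and 228 to 111 and 124, and Lamb2 from 460 and 447 to 263 and 277. Lama3, an epithelial alpha chain, fell by 0.76, Lama1 by 0.55 and Lama2 by 0.43 on the log2 scale. Lamb1 rose from 36.2 and 34.9 CPM to 47.7 and 45, so the 2 beta chains moved apart. Lama4, already low, stood at 3.43 and 3.35 CPM against 3.31 and 2.79 and had no call (adjusted p = 0.257).

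Integrins fell in 11 of 17 cases and rose in 2. Itga5 had the largest fall, from 35 and 36.2 CPM to 8.26 and 9.95, a log2 change of -1.96 ± 0.14 (SE, edgeR adjusted p = 9.17e-07). The laminin receptor subunits Itga3 and Itga6 fell by 1.16 and 1.06 on the log2 scale, from 148 and 129.7 CPM to 62.1 in both libraries and from 119.8 and 104 to 50.8 and 56.5. Itgb4 fell from 3 and 3.26 CPM to 1.67 and 1.64. Itgb1 fell from 367 and 321 CPM to 204 and 217, and Itgav from 129 and 117 to 84.3 and 91.2, by 0.71 and 0.49 on the log2 scale. Itgb8 went from 119.7 and 111 to 66.3 and 68.3 CPM without overlap (log2 change -0.78, edgeR adjusted p = 0.0347), but its call was lost when any 1 of the 4 libraries was left out (adjusted p 0.0885 to 0.132) and without the filter on low counts (0.0534).

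The lists of other matrix genes under DRB had 16 of 22 processing enzymes lower and 2 higher, 15 of 20 other matrix proteins lower and 3 higher, 11 of 18 integrin adaptors lower and 2 higher, 7 of 9 non-integrin receptors lower and 1 higher, and 7 of 12 degrading enzymes and inhibitors lower and 3 higher. Hspg2 fell from 383 and 346 CPM to 120 in both libraries, and the adaptor Tln1 (talin), which links integrins to actin, from 484 and 452 to 183 and 205. Summed mural markers went from 533 to 652 CPM in control to 148 to 149 under DRB, nearly all of it Acta2, while all 7 neuronal markers were called higher with a median log2 change of 1.00 and 4 of 6 astrocyte markers lower with -0.42. Summed endothelial markers went from 94.4 to 111.8 CPM, nearly all of it Kdr as given above, to 25.8 to 28.5. Of 7 endothelial markers only 2 were called lower, 1 was higher and 4 had no call. Of 6 oligodendrocyte markers 4 were higher and 1 lower, with a median of 0.67. Their part in the changes of the members was not tested.

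The first and last parts of each gene were then compared under DRB, a step added after the data had been seen. For 51 members with at least 9 introns and at least 1 CPM in both the first and the last of 3 equal parts of their intron list, the ratio of last to first was higher in both DRB libraries than in both control libraries in 24 genes and lower in 3. Among all 5666 genes that met these limits the shares were 47.1% and 9.71%. The members' counts were thus at the background for the first and near it for the second, where 3 genes are few. The largest gap belonged to Col22a1, a gene of 238.4 kb: the first part went from 15.4 and 13.9 CPM to 3.7 and 3.54, a log2 difference of -2.01, and the last part from 13.2 and 13.1 to 9.7 and 8.58, a difference of -0.53. Lama3 and Lama1 differed by -1.08 and -0.90 in the first part and by -0.48 and -0.33 in the last. In Itga8 the order was the opposite, 0.80 in the first part and 0.39 in the last.

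**Figure D4:**
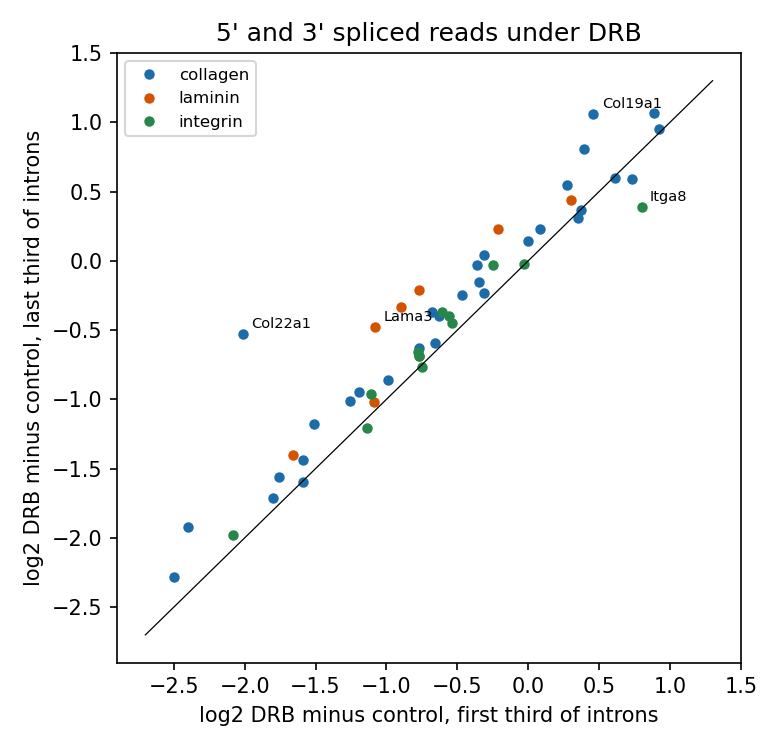
Log2 difference between DRB and control in the first (x axis) and last (y axis) of 3 equal parts of the intron list, one point per gene for 51 collagens, laminins and integrins, coloured by family, with the line of equal values. Of the 51 genes 44 lie above the line, as would 4233 of all 5666 genes that met the same limits, which are not plotted. Col22a1 lies farthest from the line at -2.01 and -0.53, and Itga8 lies below it.

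Bicuculline was added to DRB-treated cultures to ask which transcripts respond to network activity when transcription is blocked. No member was called in either direction by edgeR, of 68 tested, where 25 of 14195 genes (0.176%) were called, 23 of them higher (0.162%) and 2 lower (0.0141%). At an unadjusted p under 0.05 there were 569 genes in all (4.01%), and DESeq2 called no member and 25 genes. The median log2 change of the members was 0.01. Among the genes named by rule, Col4a1 was at 167 and 160 CPM with DRB alone and 168 and 164 with bicuculline. Itgb1 was at 356 and 385 CPM against 366 and 389.5, and Itgav at 98.1 and 100.6 against 99.4 and 103. Lamc1 was at 143.5 and 160 CPM against 161 and 162, and Itgb8 at 89.5 and 93.2 against 89 and 98.3. Col25a1, Lama2, Itga6 and Lama4 had log2 changes of 0.03, -0.04, 0.02 and -0.06, Col4a2 and Lamb1 of 0.13 and 0.06.

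The connective-tissue chains were scarce in this second experiment, at 0.557 to 1.95 CPM for Col1a2 and 0.661 to 0.923 CPM for Col3a1. Col1a1 was at 5 and 14.9 CPM in the libraries with DRB alone and 5.78 and 4.94 with bicuculline, so 1 DRB library stood apart. Its log2 change of -0.89 ± 0.75 (SE) was not called (edgeR adjusted p = 1), but was -1.47 without the other DRB library (9.52e-36) and -0.78 without the second bicuculline library (1.8e-06), fits in which 1 library stands for a group. Col1a2 likewise passed with edgeR without the first DRB library (1.29, adjusted p = 0.0269) and without the second bicuculline library (1.38, adjusted p = 0.00054).

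The choice of splice sites within members was tested last, on the share of reads at a site that join one partner, over all genes with at least 20 reads at the site in every library. With limma on these shares no site of any gene was called in any of the 4 comparisons at an adjusted p of 0.05 and a difference of 10 percentage points, a background of 0%. At an unadjusted p under 0.05 there were 1702 of 15112 sites for age and 1956 of 15006 for DRB. The counts were 2423 of 15017 for culture and 768 of 14707 for bicuculline. Members had 26, 26, 24 and 18 sites tested, of which 5, 4, 5 and 0 passed this limit. A fit that weights each share by its counting error was added after this result was known. It called 2.67%, 4.07%, 5.32% and 0.0068% of all sites, and 1, 0, 3 and 0 of the 26, 26, 24 and 18 sites in members. Run over every distinct junction, annotated or not, it called 0.431%, 0.665% and 0.736% of junctions for age, DRB and culture. Of the 706, 627 and 623 shares tested in members, 4, 2 and 5 were called. These calls are not separate events: the 2 for DRB share 1 site of Col22a1, and those for age include 2 that share a site of Col11a2. Those for culture, in both weighted runs, include the junctions on either side of 1 short exon of Col11a1, described below. The unweighted test recovered none of 200 simulated shifts of 25 points and the weighted one 99% or more, with counts drawn without extra spread between libraries. The shifts were placed only at sites with many reads, and the draws held only the counting error that the weights assume. The recovery therefore does not apply to sites with few reads, such as that of Col12a1 described below.

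The widest difference lay in Col11a1, a minor fibrillar collagen on chromosome 3, plus strand. Between exons at chr3:114133136-114133189 and chr3:114138400-114138453 (mm10), each of 54 bases and coding for glycine repeats (6 of 18 codons in each begin with GG), GENCODE annotates a short exon of 16 bases at chr3:114138171-114138186. The joined exons are shown from the GENCODE transcript, 5′ to 3′, because 16 bases do not keep the reading frame. The short exon is in capitals.
Col11a1: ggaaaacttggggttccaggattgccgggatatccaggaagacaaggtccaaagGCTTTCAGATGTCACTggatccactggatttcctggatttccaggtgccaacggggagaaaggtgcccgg
The short exon is in 1 of the 7 annotated transcripts of the gene, one labelled as a target of nonsense-mediated decay. Counted from the first base of the upstream exon, the first in-frame stop codon comes at base 238 with the short exon, 114 bases past the downstream exon, and at base 2917 without it.

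Of the reads that leave the upstream exon, those that joined the short exon were 83% (73 of 88 reads) and 84.6% (104 of 123) in the P10 libraries, and 94.9% (75 of 79) and 91.7% (77 of 84) in the P49 libraries. In control cultures they were 0.627% (2 of 319) and 0.647% (2 of 309), and under DRB 0% (0 of 82, which allows a share of up to 3.66%) and 0.971% (1 of 103). Exact 95% binomial intervals, which cover counting error only, ran from 73.4% to 98.6% over the 4 tissue libraries and from 0% to 5.29% over the control and DRB libraries, with no overlap. The cultures of the second experiment held 1.97% and 3.6% with DRB alone and 1.6% and 1.43% with bicuculline. Control against P10 differed by -83.1 percentage points, with a limma adjusted p of 0.1 in the unweighted fit, which misses the threshold, and of 1.51e-10 in the weighted one, and the junction on the other side of the short exon differed by -84.9 points (0.1 and 4.96e-10). Without weights both passed with 1 read added in place of 0.5 (limma adjusted p = 0.0167 for each), a setting that called 0.0333% of all sites, and over every distinct junction (0.0331 for each), which called 0.00335%. Gene level does not enter a share, although Col11a1 as a whole was higher in culture, 386 and 334 CPM against 113 and 117.

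**Figure D5:**
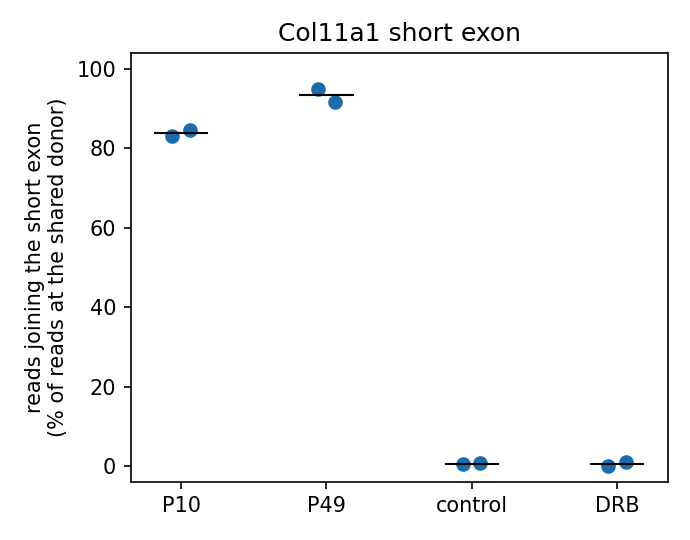
Share of Col11a1 reads leaving the upstream exon that join the short exon (percent, y axis) in each library of the first table, with points for libraries and lines for the mean of 2. The P10 and P49 libraries lie between 83% and 94.9% and the control and DRB libraries between 0% and 0.971%.

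In Col12a1 the junction chr9:79600008-79602199 took 32.5% and 44.2% of the reads at its shared site at P10, 17% and 2.7% at P49 and 13.5% and 16.9% in control cultures. Depth here was 37 to 52 reads per tissue library, and neither difference was called without weights (limma adjusted p = 0.459 for age and 0.22 for culture). With weights both passed (0.0377 and 0.00572). The difference with age passed in no weighted fit that left out a library, and that with culture passed without the first P10 library but not without the second (limma adjusted p = 0.202), the first control library (0.128) or the second (0.0823).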

How the data were processed

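The deposited files are 2 tables of junctions with whole-number counts of reads per library, as the authors left them, without normalisation. The submitters' processing notes name STAR 2.4.0f1 and mm10. The counter, its filters and its handling of multiply mapped reads are not given in the sources used here. Column names show groups without the labels' replicate numbers. They name P10, DRB and bicuculline, and columns of the 3 other groups were matched as the names left over. In the second experiment the columns taken as DRB alone carry ctl in their names, not DRB. They were assigned because DRB alone is the other group that the labels give there. A further 72 per-library columns were not used. Some of these name the first DRB libraries with TTX, and no source used here says if those cultures had it.

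Distinct junctions were matched to introns of GENCODE mouse release M21, which held 99.13% to 99.29% of spliced reads, and summed per symbol, so a read over several junctions counts for each. Between 0.07579% and 0.08767% of reads had no symbol and stayed out. Junctions of Col5a1 are shared with Gm13372. Tests on gene sums were two-sided quasi-likelihood fits in edgeR 4.0.16 over all libraries of a table, with TMM scaling, after its filter on low counts, which 70 members passed in the first table (not Col10a1 and Itgb6) and 68 in the second (nor Itga11 and Lamc3). Benjamini-Hochberg adjusted p-values over all genes were called at 0.05. Shares at splice sites were tested with limma 3.58.1 on logits with 0.5 reads added, over all genes. The fit weighted by counting error (constant 0.01, later also 0 and 0.05), the run over every junction and the ratio of last to first introns were chosen after seeing the data. Models were tested on simulated data. Computation used R 4.3.3, Python 3.11.15, numpy 2.4.6, scipy 1.17.1 and matplotlib 3.10.9.

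The members and lists were chosen with earlier results of these data known. Members were named by rule: per comparison and family, up to 6 called genes with the largest log2 change and a mean of at least 2 CPM, 14 genes followed throughout (Col1a1, Col1a2, Col3a1, Col4a1, Col4a2, Col25a1, Lama2, Lama4, Lamb1, Lamc1, Itgav, Itgb1, Itga6 and Itgb8), and up to 3 genes per other list. Others named were chosen after their values were seen. The values of 1 member are not reported here, and it is left out of the plot of log2 changes. Alternatives were DESeq2 1.42.0, no filter, upper-quartile scaling, every junction with a symbol, only the groups compared, each library left out in turn, a replicate block in the second table, and other limits and offsets for shares.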

Additional observations from a re-analysis of the deposited data

Results flagged for a closer look

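Junctions outside the annotation entered no gene sum, and 4 of them in members carried signal whose share differed between groups. In Col26a1 a junction at chr5:136765364-136778813 took 4.42% and 5.84% of the reads at its site at P10 and 30.9% (21 of 68 reads) and 5.88% (2 of 34) at P49, a difference of 13.3 percentage points that rests on 1 P49 library. In Col11a2 a junction at chr17:34061940-34062214 took 28.1% and 19.6% at P10 and 14.3% and 5.05% at P49, a difference of -14.2 points. In Col22a1 a junction at chr15:71815999-71817569 took 48.8% and 41.8% in control cultures and 86.8% and 84.9% under DRB, a difference of 40.5 points, at 41 to 68 reads per library. In Lama5 a junction at chr2:180187277-180187453 took 16.7% (6 of 36 reads) and 14.8% (4 of 27) at P10 and none of 262 and 312 reads in control cultures, a difference of -15.7 points. Unweighted limma called none of the 4 (adjusted p 0.834, 0.834, 0.465 and 0.11), and the weighted fit passed all 4 (0.0144, 0.0013, 0.000234 and 0.00197), both over every distinct junction.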

How the results depend on the processing

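Among member calls with edgeR or DESeq2, 595 of 630 alternative values for age, 596 of 629 for DRB, 615 of 630 for culture and 600 of 612 for bicuculline kept direction and side of the threshold, and none reversed. In 24, 27, 10 and 0 cases a call was lost, and in 11, 6, 5 and 12 a call was gained. Counts of called members under DESeq2, upper-quartile scaling, no filter, every junction, only the groups compared and single left-out libraries stayed within 1.5 times for age (10 to 12 higher, 36 to 39 lower), DRB (11 to 16, 33 to 38) and culture (24 to 26, 35 to 39).

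For bicuculline, no filter gave 41 genes higher and 15 lower over all genes, and DESeq2 gave 1 lower. Leaving out 1 library gave 26 to 53 higher and 6 to 35 lower over all genes, and 0 to 3 higher and 0 to 2 lower among members. With a replicate block, built on the a and b that end column names in the second table, there were 57 higher and 31 lower genes, including 2 members higher (Col19a1 and Col5a2) and 1 lower (Col16a1). These letters match no replicate number of the labels. For the first table no paired analysis was possible because its columns carry no replicate number.

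For splice sites in members, where the unweighted count was 0 as reported, the counting weights gave 1 for age with a constant of 0.01, 0 or 0.05, with 10 reads, and with an offset of 1, but 0 with 50 reads or a library left out, and 4 over every junction. For DRB they gave 0, and 2 over every junction. For culture, the unweighted offset of 1 gave 2 and the unweighted run over every junction 3, all at the short exon of Col11a1. The weights gave 3 with each constant, with 10 reads and with the offset of 1, 2 with 50 reads, 2 to 3 with a library left out and 5 over every junction. Junctions that share a site or an exon were counted separately. The cause was not tested.

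With 2 libraries a group, a sum at few CPM (Col8a2, Col17a1) cannot show small changes, and a single library decides calls such as that of Col1a1 in the second experiment. The named shares at splice sites rest on as few as 27 reads per library.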
